A study of Mus musculus with 28 samples.

Results

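The Tead factors and the core of the Hippo pathway were followed here as 10 genes: the transcription factors Tead1, Tead2, Tead3 and Tead4, their coactivators Yap1 and Wwtr1, the kinases Lats1 and Lats2, and the target genes Ctgf and Cyr61. They were taken by name from the 43253 features of the count tables, and all 10 were present and passed the expression filter. Because the genes were picked with levels in these same libraries already known, their values and fold changes are given as a description, without p-values.

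In the Hippo pathway, upstream kinases activate Lats1 and Lats2, which phosphorylate the coactivators Yap1 and Wwtr1 (also called TAZ) and keep them out of the nucleus. When the kinases are inactive, Yap1 and Wwtr1 enter the nucleus and bind Tead proteins, which hold the DNA-binding domain, and genes such as Ctgf (also called Ccn2) and Cyr61 (also called Ccn1), both secreted matrix-associated proteins, are switched on. The pathway is best known for control of organ size and of proliferation, and its activity is set largely by phosphorylation and localisation, which RNA levels do not measure. In the seminiferous epithelium, retinoic acid starts the differentiation of spermatogonia, and Stra8 is the retinoic acid-responsive gene that germ cells need for meiosis.

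Germ cells of Stra8 KO mice were compared with germ cells of Stra8 WT mice, both on a background derived from C57BL/6 x 129s4/SvJae. All animals, KO and WT, were given WIN 18,446 for a synchrony of 7 days; this compound blocks the enzymes that make retinoic acid. They were collected without retinoic acid (0 h) or 12, 18, 48, 72, 96 or 120 h after a retinoic acid injection, and testis cells were sorted for PIWIL2-eGFP, so every library rests on this germ cell reporter. PolyA RNA was sequenced on an Ion Proton from 2 libraries for each of the 14 groups, 28 in all. Ages, pooling of animals and the deleted part of Stra8 are not stated in the labels. They also do not say that libraries came from separate animals, so standard errors and p-values cover the spread among the libraries, which may be a technical one.

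Levels are in CPM, read counts scaled to the library total, and pairs of values stand in the order of the first and second count table (replicate 1 and replicate 2). Library totals were 913055 to 9507928 reads in KO and 5752475 to 10135820 in WT. The replicate 2 KO libraries at 72, 96 and 120 h were shallow, with 1078460, 913055 and 1030025 reads. Stra8 itself had 0 to 62.2 CPM in KO libraries and 7.66 to 1043 CPM in WT libraries. The 62.2 CPM was in KO 48 h replicate 1, whose partner had 2.10 CPM, while the WT libraries at 48 h had 97.15 and 199.6 CPM. The 9 germ cell markers summed to 4668 to 6282 CPM in KO and 3303 to 6426 CPM in WT, the WT sums at 96 and 120 h being 3303 to 4041. Markers of other testis cells were present at lower levels: 12 Sertoli cell markers summed to 67.5 to 968 CPM in KO and 49.1 to 267 CPM in WT, and 11 peritubular and stromal markers, led by Col1a1 (a collagen), to 139 to 501 CPM in KO and 73.8 to 382 CPM in WT. The Sertoli sum of 968 CPM was in KO 72 h replicate 2, where Clu reached 631 CPM. Of 7 Leydig cell markers (5.04 to 15.8 CPM in KO and 4.93 to 9.18 in WT), Insl3 had 0 reads in all 28 libraries, while the 7 endothelial markers summed to 23.0 to 51.0 CPM in KO and 11.2 to 51.6 CPM in WT, and the 7 macrophage markers found summed to 1.19 to 5.56 CPM in KO and 0.651 to 5.04 CPM in WT. The 18 immediate early genes, which can be induced by tissue handling, summed to 474 to 717 CPM in KO and 307 to 694 CPM in WT. In these sorted pools, fewer cells of a type and less RNA per cell cannot be told apart.

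Upstream sequence is shown for 5 of the genes because they hold, or in the case of Tead2 lack, the core letters that Tead proteins recognise. RefSeq (GRCm38.p6) start sites were found for 7 of the 10 genes. The 250 bases before each start site were searched on both strands for GGAATG, the Tead core motif, which is CATTCC when it lies on the opposite strand; the sequences below run 5′ to 3′ on the gene's own strand, with matches in capitals. The 7 genes had 11 start sites, and 6 of these 11 windows, in 4 genes, held at least 1 match, the pair of Wwtr1 windows sharing theirs. Of all 32851 RefSeq windows of the same length, 12.6% held one. The matches are a description of letters, not of binding sites.
Tead2, chr7:45215542-45215791, + strand, no match: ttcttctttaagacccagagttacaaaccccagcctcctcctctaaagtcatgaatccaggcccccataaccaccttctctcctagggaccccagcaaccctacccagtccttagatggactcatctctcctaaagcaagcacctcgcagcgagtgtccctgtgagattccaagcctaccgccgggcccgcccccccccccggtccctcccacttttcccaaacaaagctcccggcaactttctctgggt
Tead3, first of 3 start sites, chr17:28350806-28351055, - strand, match at -182 to -177: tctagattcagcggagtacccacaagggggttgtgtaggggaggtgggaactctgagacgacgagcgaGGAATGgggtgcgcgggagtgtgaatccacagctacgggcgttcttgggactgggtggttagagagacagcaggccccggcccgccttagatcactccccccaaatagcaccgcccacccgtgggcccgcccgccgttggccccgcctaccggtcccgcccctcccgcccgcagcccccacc
Yap1, chr9:8004597-8004846, - strand, match at -141 to -136: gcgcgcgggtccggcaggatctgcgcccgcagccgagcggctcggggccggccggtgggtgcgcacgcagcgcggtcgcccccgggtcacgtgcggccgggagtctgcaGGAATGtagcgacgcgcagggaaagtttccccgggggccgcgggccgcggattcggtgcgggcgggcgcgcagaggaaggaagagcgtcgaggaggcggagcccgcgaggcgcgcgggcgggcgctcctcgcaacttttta
Wwtr1, first of 2 start sites, chr3:57575911-57576160, - strand, match at -136 to -131: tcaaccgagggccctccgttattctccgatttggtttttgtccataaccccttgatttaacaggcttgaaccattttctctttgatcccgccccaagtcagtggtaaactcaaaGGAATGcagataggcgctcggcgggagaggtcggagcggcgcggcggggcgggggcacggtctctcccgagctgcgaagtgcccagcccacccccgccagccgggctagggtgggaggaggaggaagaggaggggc
Cyr61, chr3:145649986-145650235, - strand, match on the opposite strand at -103 to -98: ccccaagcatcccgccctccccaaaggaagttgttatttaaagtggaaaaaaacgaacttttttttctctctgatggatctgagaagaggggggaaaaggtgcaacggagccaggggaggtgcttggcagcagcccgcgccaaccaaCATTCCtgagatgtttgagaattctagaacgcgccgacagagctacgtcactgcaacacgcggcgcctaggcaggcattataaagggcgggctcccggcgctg
Positions count back from -1, the base just before the start. The second Wwtr1 window overlaps the first and holds the same match at -170 to -165, and the second Tead3 window holds a pair of matches on the opposite strand, at -123 to -118 and -114 to -109. The windows of Lats1, of both Lats2 start sites and of the third Tead3 start site had none. No window of these 7 genes held a direct repeat of AGGTCA, the retinoic acid receptor half-site, with 5 bases between the copies (either strand), which was found in 0.009% of all windows.

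Levels of different genes can be compared only per length, and CPM per kilobase of exon is used for that. By the median over the 28 libraries, Lats2 was the highest at 23.3 CPM per kb (18.5 to 36.8), followed by Tead2 at 20.01 (5.96 to 32.3), Yap1 at 12.2 (8.77 to 16.8) and Lats1 at 7.68 (5.57 to 12.2). Tead1 followed at 4.12 CPM per kb (2.13 to 8.06), Wwtr1 at 2.88 (1.15 to 5.78) and Tead3 at 2.08 (0.613 to 4.89). The lowest were Ctgf at 0.839 CPM per kb (0.310 to 2.61), Tead4 at 0.613 (0.0346 to 1.87) and Cyr61 at 0.437 (0 to 1.84). The ranges of every pair of neighbours in this order overlapped. Among the Tead genes Tead2 was the highest and Tead4 the lowest, Yap1 stood above its paralog Wwtr1, and the target genes Ctgf and Cyr61 were near the bottom. The Lats2 level carries a limit: 42.4% of its exon bases are shared on the same strand with the gene model Gm49361, which has no row of its own in the tables.

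Tead2 (ENSMUSG00000030796.17, chromosome 7, 45215753 to 45233644, + strand, GRCm38), a Tead factor that is highly expressed in early embryos, had the largest fitted difference between the genotypes at a single time. Its KO libraries had 130.2 and 108 CPM before retinoic acid, 98.8 and 101 after 12 h and 84.3 and 73.7 after 18 h. Later Tead2 values in KO were 116 and 106 after 48 h, 112 and 133 after 72 h, 91.8 and 105 after 96 h and 90.99 and 105 after 120 h. Its WT libraries had 89.9 and 95.98 CPM before retinoic acid, 95.6 and 88.1 after 12 h and 94.4 and 103 after 18 h. Later Tead2 values in WT were 128 and 154 after 48 h, 60.2 and 86.5 after 72 h, 46.8 and 71.3 after 96 h and 38.2 and 28.5 after 120 h. Tead2 was the only one of the 10 genes whose genotypes did not overlap at any of the 7 times: both KO libraries lay above both WT libraries at 0, 12, 72, 96 and 120 h and below both at 18 and 48 h. The share of all genes without overlap at all 7 times was not counted. Shares at each single time stand below, with the overlap counts of the 10 genes. Fitted Tead2 log2 fold changes of KO over WT were 0.34 ± 0.20 at 0 h, 0.12 ± 0.20 at 12 h, -0.25 ± 0.20 at 18 h, -0.33 ± 0.19 at 48 h, 0.66 ± 0.20 at 72 h, 0.70 ± 0.20 at 96 h and 1.45 ± 0.21 at 120 h (± SE, 2 libraries a group). The KO libraries stayed between 73.7 and 133 CPM throughout, while the WT libraries were highest at 48 h and lowest at 120 h. Against 0 h, KO Tead2 stood at -0.07 ± 0.20 on the log2 scale at 48 h, -0.30 ± 0.20 at 96 h and -0.31 ± 0.20 at 120 h. WT Tead2 stood at 0.60 ± 0.19, -0.66 ± 0.20 and -1.43 ± 0.20 at those times, the 96 h value coming to -0.42 without WT 96 h replicate 1 and to -1.03 without replicate 2. The difference between the genotypes in the change of 120 h over 0 h was 1.12 ± 0.28 log2 units, KO minus WT. Within 120 h, peritubular and stromal marker sums were 414 and 395 CPM in KO libraries and 128 and 122 CPM in WT libraries, and germ cell marker sums were 5093 and 4922 CPM in KO and 3778 and 3623 CPM in WT. Sertoli sums were 308 and 237 CPM in KO and 92.7 and 129 CPM in WT at 120 h, and 270.2 to 968 CPM in KO and 96.5 to 217 CPM in WT at 72 h. Endothelial sums at 120 h were 40.35 and 33.98 CPM in KO and 18.8 and 11.2 CPM in WT, and immediate early sums 653 and 587 CPM in KO and 397 and 307 CPM in WT. The part of these markers in the Tead2 difference was not tested.

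**Figure D1:**
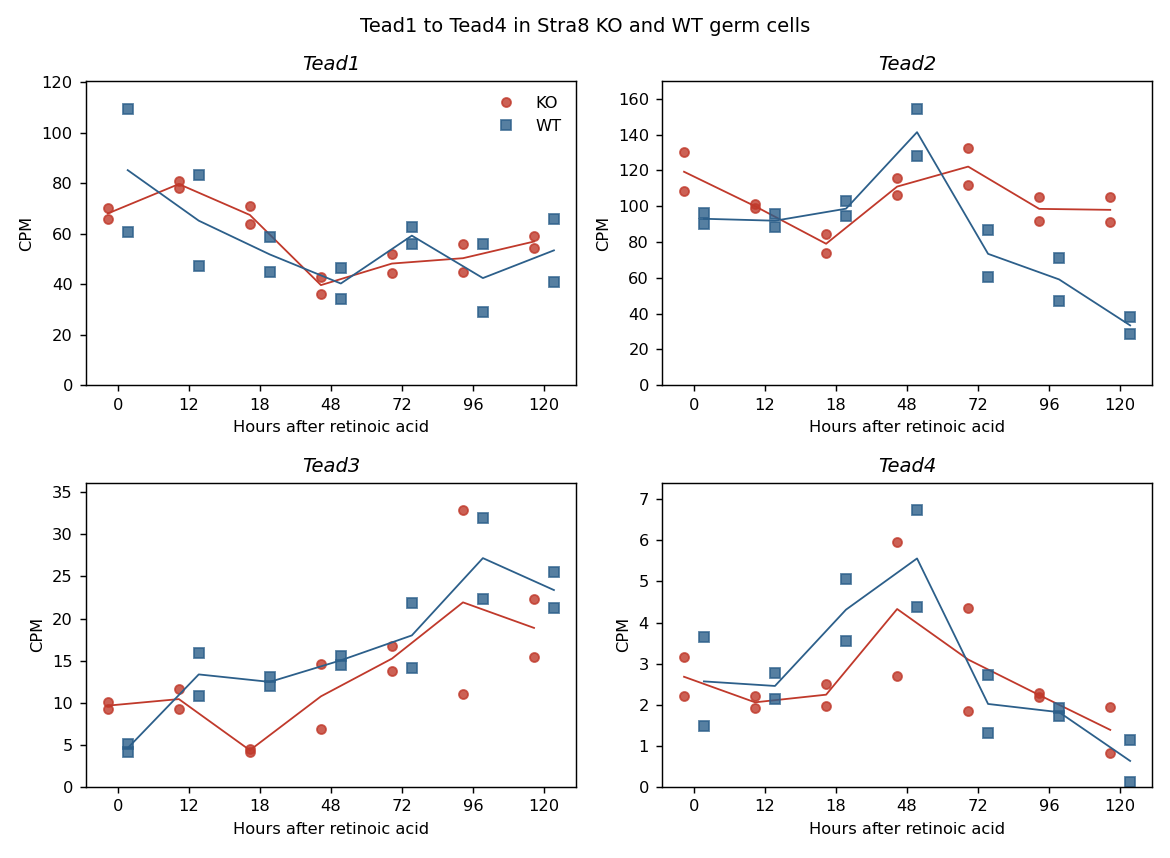
Levels of Tead1 to Tead4 in CPM (y axes, linear from 0) at each time after retinoic acid (x axes, 0 to 120 h, evenly spaced categories). Red circles are the 2 KO libraries and blue squares the 2 WT libraries of each time, and lines join the means; Tead2 ends at 91.0 and 105 CPM in KO and at 38.2 and 28.5 CPM in WT.

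In the deposited CPM tables, the columns for KO at 72, 96 and 120 h in the first table matched no count column. They stand where the shallow KO libraries of these times would, and may hold the same samples, so they are given as values only. These columns held Tead2 at 126 CPM at 72 h (exact Poisson interval 115 to 136, counting error only), 105 CPM at 96 h (95.3 to 115) and 92.5 CPM at 120 h (83.5 to 102).

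Tead3 (ENSMUSG00000002249.21, chromosome 17, 28331671 to 28350817, - strand, GRCm38), a family member known from placenta and other epithelia, differed from Tead2 in its course. In KO cells it had 9.26 and 10.04 CPM before retinoic acid, 9.28 and 11.6 after 12 h and 4.52 and 4.17 after 18 h. Later Tead3 values in KO were 14.6 and 6.89 after 48 h, 13.8 and 16.7 after 72 h, 10.99 and 32.9 after 96 h and 15.4 and 22.3 after 120 h. In WT cells it had 4.12 and 5.08 CPM before retinoic acid, 10.8 and 15.96 after 12 h and 11.9 and 13.01 after 18 h. Later Tead3 values in WT were 14.5 and 15.6 after 48 h, 14.2 and 21.8 after 72 h, 22.4 and 31.99 after 96 h and 25.5 and 21.3 after 120 h. In KO the log2 fold changes over 0 h were 0.13 ± 0.38 at 12 h, -1.07 ± 0.41 at 18 h, 0.24 ± 0.38 at 48 h, 0.63 ± 0.40 at 72 h, 0.95 ± 0.40 at 96 h and 0.90 ± 0.39 at 120 h. In WT all libraries at later times lay above both 0 h libraries, and the fold changes were 1.54 ± 0.39, 1.41 ± 0.39, 1.71 ± 0.39, 2.01 ± 0.39, 2.56 ± 0.39 and 2.40 ± 0.39 at the same times. Both KO libraries were above both WT libraries at 0 h and below both at 18 h, where the KO over WT log2 fold change was -1.44 ± 0.40; at the other 5 times the genotypes overlapped. The KO library with 32.9 CPM at 96 h was the shallow one of its pair, and its partner had 10.99 CPM.

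Tead1 (ENSMUSG00000055320.17, chromosome 7, 112679318 to 112906807, + strand, GRCm38), the widely expressed member of the family, had KO levels of 65.6 and 70.3 CPM before retinoic acid, 78.2 and 81.00 after 12 h and 63.7 and 71.03 after 18 h. Later Tead1 values in KO were 42.9 and 36.2 after 48 h, 51.7 and 44.5 after 72 h, 44.6 and 55.9 after 96 h and 54.5 and 59.2 after 120 h. The WT levels were 109 and 60.8 CPM before retinoic acid, 83.1 and 47.1 after 12 h and 58.6 and 44.9 after 18 h. Later Tead1 values in WT were 46.5 and 33.9 after 48 h, 62.4 and 55.9 after 72 h, 55.9 and 28.9 after 96 h and 65.8 and 40.9 after 120 h. Both WT libraries at 48 and 96 h were below both WT 0 h libraries, with log2 fold changes of -1.08 ± 0.30 and -0.99 ± 0.30. WT replicate 1 was above replicate 2 at every time, at 0 h by 109 against 60.8 CPM, and without WT 0 h replicate 1 these fold changes came to -0.63 and -0.57; the 96 h value came to -1.59 without WT 96 h replicate 1. The genotypes overlapped at 5 of the 7 times, KO being above at 18 h and below at 72 h, and the mean over the 7 times differed by 0.03 ± 0.12 log2 units.

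Tead4 (ENSMUSG00000030353.15, chromosome 6, 128224288 to 128300823, - strand, GRCm38), which is needed to form trophectoderm in the early mouse embryo, was low. It had 0.830 to 5.96 CPM in KO libraries and 0.125 to 6.73 CPM in WT libraries, with 1 to 65 reads in a library. In KO the log2 fold change of 120 h over 0 h was -1.34 ± 0.76, with 0.830 and 1.94 CPM at 120 h against 3.16 and 2.203 CPM at 0 h. In WT it was -1.98 ± 0.67, with 1.13 and 0.125 CPM at 120 h against 3.66 and 1.47 CPM at 0 h, after 6.73 and 4.39 CPM at 48 h. The WT value came to -1.21 without WT 120 h replicate 2, which held 1 read, to -1.22 without WT 0 h replicate 1 and to -4.15 without WT 120 h replicate 1. The unmatched KO columns held 5.59, 6.21 and 2.43 CPM at 72, 96 and 120 h, while the KO libraries of the count tables had 4.34 and 1.85, 2.28 and 2.19, and 0.830 and 1.94 CPM.

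Per kilobase, Tead2 made up most of the summed Tead RNA in every KO library, at 69.5 to 83.3%, and 65.9 and 78.0% in the WT libraries at 0 h. At 120 h its share was 74.4 and 72.7% in KO libraries and 47.1 and 48.9% in WT libraries. The share of Tead3 at 120 h was 9.002 and 11.04% in KO libraries and 22.4 and 26.1% in WT libraries, against 4.02 and 5.003% in KO and 2.15 and 2.94% in WT at 0 h. The summed level of the 4 Tead genes at 120 h was 25.6 and 30.1 CPM per kb in KO and 16.9 and 12.2 CPM per kb in WT. These shares and sums depend on the exon lengths used, 13.57 kb for Tead1 and 4.79 kb for Tead2. In plain CPM Tead1 was above Tead2 in both WT libraries at 120 h and below it in both KO libraries.

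**Figure D2:**
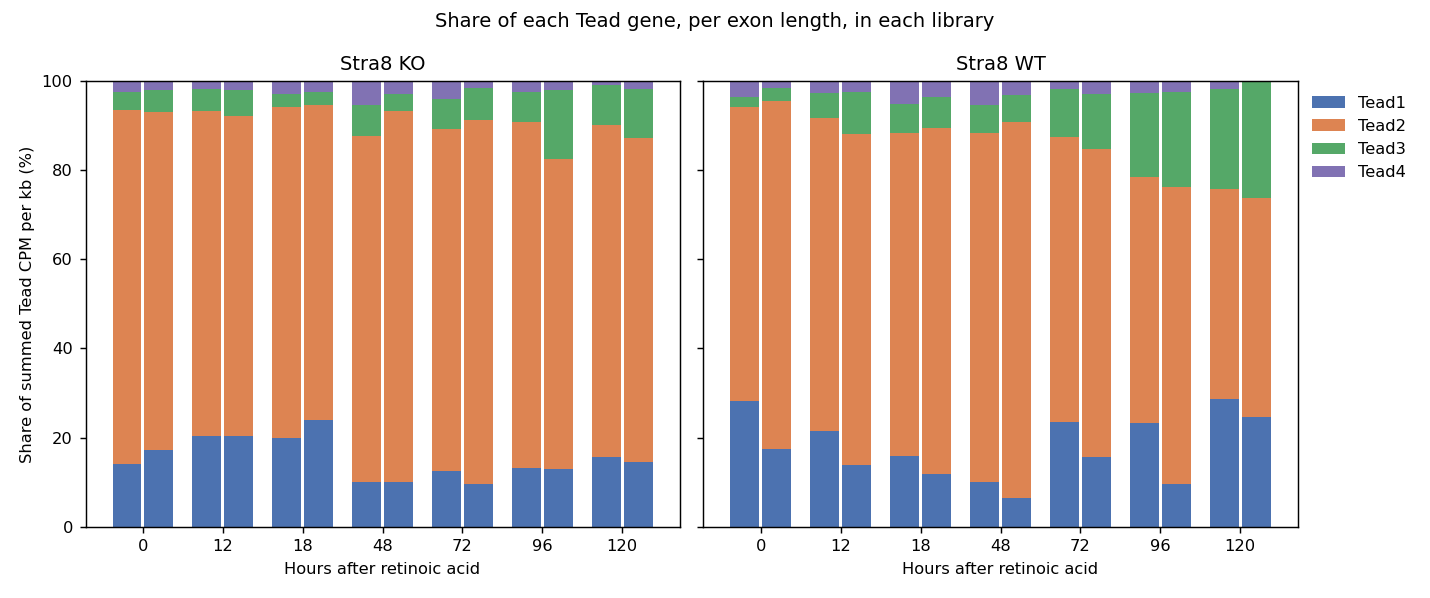
Share of Tead1, Tead2, Tead3 and Tead4 in their summed CPM per kilobase of exon (y axis, percent), in each KO library (left panel) and WT library (right panel) by hours after retinoic acid; the pair of bars at each time are replicates 1 and 2. The Tead2 share is 74.4 and 72.7% in KO at 120 h and 47.1 and 48.9% in WT at 120 h.

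The coactivator Yap1 (ENSMUSG00000053110.13, chromosome 9, 7931999 to 8004596, - strand, GRCm38) stayed between 81.2 and 155 CPM in all 28 libraries. Its KO libraries held 149.9 and 123 CPM before retinoic acid, 81.2 and 106 after 12 h and 87.1 and 97.1 after 18 h. Later KO levels of Yap1 were 109.7 and 101 after 48 h, 119 and 124 after 72 h, 103 and 115 after 96 h and 122 and 113 after 120 h. WT libraries held 137 and 113 CPM before retinoic acid, 109 and 83.8 after 12 h and 122 and 103 after 18 h. Later WT levels of Yap1 were 155 and 142 after 48 h, 125 and 94.7 after 72 h, 115 and 136 after 96 h and 113 and 96.9 after 120 h. At 18, 48 and 96 h both KO libraries lay below both WT libraries, and at the other 4 times the genotypes overlapped; the largest fitted difference was -0.48 ± 0.18 at 48 h. Over the 7 times the mean log2 fold change was -0.11 ± 0.07. The largest fitted Yap1 difference from 0 h in either genotype was -0.52 ± 0.18 log2 units, in KO at 12 h. Both KO libraries at 12 and 18 h lay below both KO 0 h libraries.

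Its paralog Wwtr1 (ENSMUSG00000027803.14, chromosome 3, 57455649 to 57575910, - strand, GRCm38) had a dip after retinoic acid in both genotypes. In KO it had 16.2 and 17.1 CPM before retinoic acid, 6.55 and 6.89 after 12 h and 7.04 and 5.48 after 18 h. Later Wwtr1 values in KO were 7.16 and 7.48 after 48 h, 11.3 and 15.8 after 72 h, 11.7 and 26.3 after 96 h and 17.8 and 23.3 after 120 h. In WT it had 27.6 and 15.7 CPM before retinoic acid, 10.6 and 9.67 after 12 h and 12.1 and 8.34 after 18 h. Later Wwtr1 values in WT were 12.9 and 10.5 after 48 h, 17.2 and 14.5 after 72 h, 19.6 and 15.6 after 96 h and 27.6 and 25.8 after 120 h. Both libraries at 12, 18 and 48 h lay below both 0 h libraries in each genotype. The log2 fold changes from 0 h were -1.28 ± 0.33, -1.33 ± 0.33 and -1.15 ± 0.33 in KO at 12, 18 and 48 h and -1.08 ± 0.31, -1.10 ± 0.31 and -0.88 ± 0.31 in WT at those times. By 120 h the values were 0.25 ± 0.33 in KO and 0.36 ± 0.30 in WT. Without WT 0 h replicate 1, the highest of the 0 h libraries, the WT values at 12 and 18 h came to -0.67 and -0.68. KO was lower in the fit at every time, by -0.12 to -0.67, and over the 7 times by -0.47 ± 0.12 log2 units. The peritubular and stromal marker sums were lower at 12 and 18 h than at 0 h in both genotypes. At 120 h these sums were within the 0 h range in KO and below it in WT. At 0, 12, 18 and 120 h the KO pairs of libraries spanned 373 to 501, 142 to 169.6, 139 to 160.4 and 395 to 414 CPM. The WT pairs spanned 267 to 382, 107 to 115, 73.8 to 112 and 122 to 128 CPM at those times. The part of such cells in the Wwtr1 course and in its KO against WT difference was not tested.

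Lats1 and Lats2, the kinases that phosphorylate Yap1 and Wwtr1, were both lower in KO on average, with different courses. Lats1 (ENSMUSG00000040021.13, chromosome 10, 7681214 to 7716460, + strand, GRCm38) had KO levels of 46.5 and 60.5 CPM before retinoic acid, 57.2 and 52.6 after 12 h and 54.1 and 51.5 after 18 h. Later Lats1 values in KO were 50.4 and 53.9 after 48 h, 50.8 and 73.3 after 72 h, 47.6 and 41.6 after 96 h and 54.5 and 50.5 after 120 h. WT levels of Lats1 were 60.95 and 54.9 CPM before retinoic acid, 84.4 and 64.2 after 12 h and 80.9 and 64.9 after 18 h. Later Lats1 values in WT were 67.9 and 54.4 after 48 h, 74.7 and 67.8 after 72 h, 83.8 and 40.7 after 96 h and 80.6 and 88.8 after 120 h. KO Lats1 lay below WT without overlap at 12, 18, 48 and 120 h, and the fit gave a lower KO value at all 7 times, from -0.15 ± 0.25 at 0 h to -0.77 ± 0.26 at 120 h. The mean over times was -0.40 ± 0.10.

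Lats2 (ENSMUSG00000021959.16, chromosome 14, 57689662 to 57758388, - strand, GRCm38) had, in KO, 148 and 142 CPM before retinoic acid, 130.4 and 153 after 12 h and 135 and 163 after 18 h. Later Lats2 values in KO were 175 and 201 after 48 h, 183 and 156 after 72 h, 152 and 166 after 96 h and 162 and 151 after 120 h. The corresponding WT levels were 150.3 and 135 CPM before retinoic acid, 166 and 152 after 12 h and 248 and 207 after 18 h. Later Lats2 values in WT were 239 and 256 after 48 h, 207 and 238 after 72 h, 171 and 197 after 96 h and 135 and 129 after 120 h. KO Lats2 differed from its 0 h level by -0.01 ± 0.16 log2 units at 12 h to 0.41 ± 0.16 at 48 h. Both WT libraries stood above both WT 0 h libraries at 12, 18, 48, 72 and 96 h, by 0.65 ± 0.16, 0.79 ± 0.16 and 0.68 ± 0.16 at 18, 48 and 72 h, and at 120 h WT Lats2 was at -0.05 ± 0.16. Both KO libraries lay below both WT libraries at 18, 48, 72 and 96 h and above both at 120 h. In the unmatched KO columns Lats2 had 155, 178 and 165 CPM at 72, 96 and 120 h. Over the 7 times the KO over WT log2 fold change was -0.23 ± 0.06 with the exon overlap with Gm49361 given above.

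The target genes Ctgf and Cyr61 were near the detection limit. Ctgf (ENSMUSG00000019997.11, chromosome 10, 24595442 to 24598683, + strand, GRCm38) had 0.927 to 7.47 CPM in KO libraries and 0.888 to 5.897 CPM in WT libraries. Its mean was highest at 0 h, with 7.47 and 2.69 CPM in KO and 3.66 and 5.897 CPM in WT; in KO this rests on replicate 1, since replicate 2 lay below at least 1 KO library of every later time. At 12 and 18 h the KO libraries had 2.73 and 1.38, then 3.35 and 2.41 CPM, and the WT libraries had 0.888 and 1.53, then 1.09 and 1.59 CPM. The log2 fold changes over 0 h were -1.26 ± 0.60 at 12 h and -0.80 ± 0.58 at 18 h in KO and -1.98 ± 0.61 and -1.85 ± 0.60 at those times in WT, where the peritubular and stromal sums were also low; the part of such cells was not tested. These WT values were past the genome-wide threshold in 20 of 28 fits without 1 library at 12 h and in 16 of 28 at 18 h. In 23.2% of its exon bases Ctgf overlaps the antisense model Gm15270, which had 0 to 6 reads in a library. Cyr61 (ENSMUSG00000028195.4, chromosome 3, 145646976 to 145649981, - strand, GRCm38) had 0 to 3.71 CPM in KO libraries and 0.229 to 3.22 CPM in WT libraries, and the genotypes overlapped at all 7 times. It had 0 reads in the shallow KO libraries at 96 and 120 h, which allows up to 3.29 and 2.91 CPM for counting error only. No difference in Cyr61 was detectable at this depth.

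**Figure D3:**
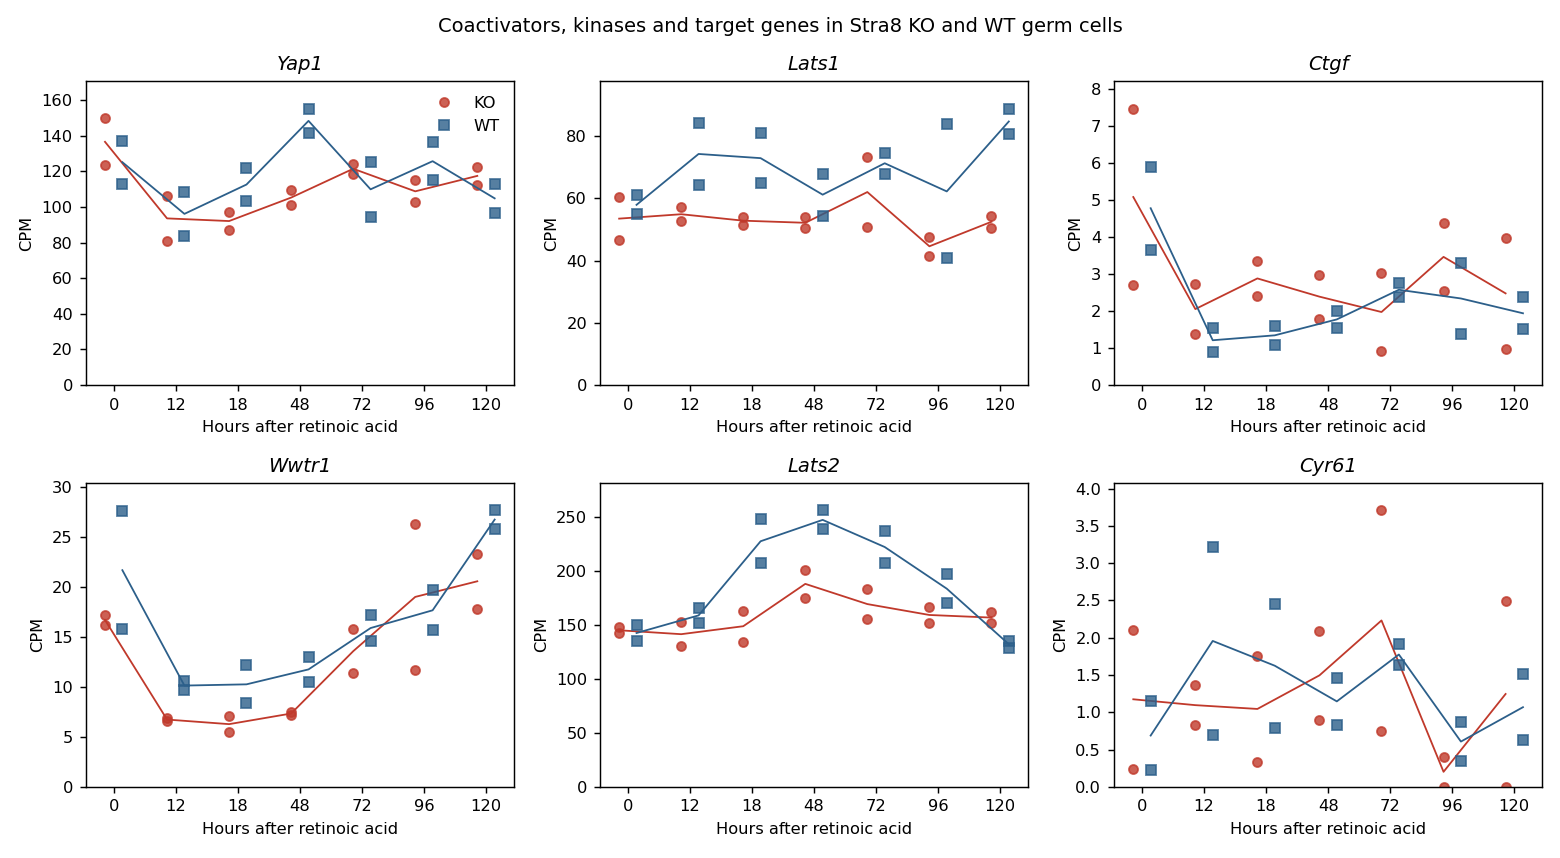
Levels of Yap1, Lats1 and Ctgf (top) and Wwtr1, Lats2 and Cyr61 (bottom) in CPM (y axes, linear from 0) at 0 to 120 h after retinoic acid (x axes, evenly spaced categories). Red circles are KO libraries, blue squares WT libraries and lines the means of 2; at 48 h Lats2 has 175 and 201 CPM in KO and 239 and 256 CPM in WT, its highest pair.

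Across the 10 genes, the mean over the 7 times passed the genome-wide threshold (a quasi-likelihood test of edgeR with p adjusted by Benjamini-Hochberg over 17519 genes, under 0.05) for 4: Tead2 was higher in KO, and Lats1, Lats2 and Wwtr1 were lower. Of all genes tested, 37.5% passed in this comparison, 17.4% higher and 20.1% lower, so 4 of 10 is near the background, and nothing is read from it because the same contrast lay behind the choice of genes. These 4 calls were present in all 28 fits that left out 1 library and in the 7 other alternatives. Same-numbered WT libraries shared deviations across times (r 0.258 to 0.517), while the fit treated libraries as independent. The SE and adjusted p of the mean over times may therefore be too small. Fits without 1 library and a block on the replicate number cannot show this. At single times the genes past the threshold were Tead3 at 18 h (background 4.14%), Tead2 at 96 h (4.47%) and Tead2 and Lats1 at 120 h (15.4%). None passed at 0 h (0%), 12 h (1.18%), 48 h (0.308%) or 72 h (4.7%). Tead2 at 120 h was past the threshold in every alternative, at 1.27 to 1.62. At 96 h it was past it in only 3 of 28 fits without 1 library, at 0.40 to 1.01, the extremes coming without WT 96 h replicate 1 and replicate 2, and in 2 of the 7 other alternatives. The Lats1 call at 120 h was lost without either library of either genotype at 120 h and with the unmatched KO columns (-0.61), with library totals and without the shallow libraries, and Tead3 at 18 h was lost in 9 of 28 such fits at -1.40 to -1.53. With the replicate number as a block, Tead3 in the mean over times, Tead2 at 72 h and Lats2 at 18 h were past the threshold too. The Tead3 call was also present with no low-count filter, without the shallow libraries and in some fits without 1 library. Among these were the fits without replicate 2 of KO 96 h or of KO 120 h. The Lats2 call was also present with DESeq2 and with library totals. Tead2 at 72 h passed with DESeq2, its size factors and the unmatched KO columns as well. Ctgf in the mean over times passed with the unmatched KO columns.

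The overlap counts are a description, and nothing is read from them because the genes were picked with these levels known. At 18 h both KO libraries lay below both WT libraries for 7 of the 10 genes and above for 2. Over all genes tested the shares at 18 h were 32.1% below, the largest such share of any time, and 19.4% above. At 48 h 5 of the 10 genes were below (24.8% of all genes tested) and none above (20.5%). At 120 h 2 were above (30.2%) and 2 below (25.2%), at 96 h 2 above (22.3%) and 2 below (17.1%), and at 72 h 1 above (25.3%) and 2 below (22.4%). At 12 h 1 was above (22.6%) and 2 below (25.4%), and at 0 h 2 were above (21.7%) and none below (19.4%).

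**Figure D4:**
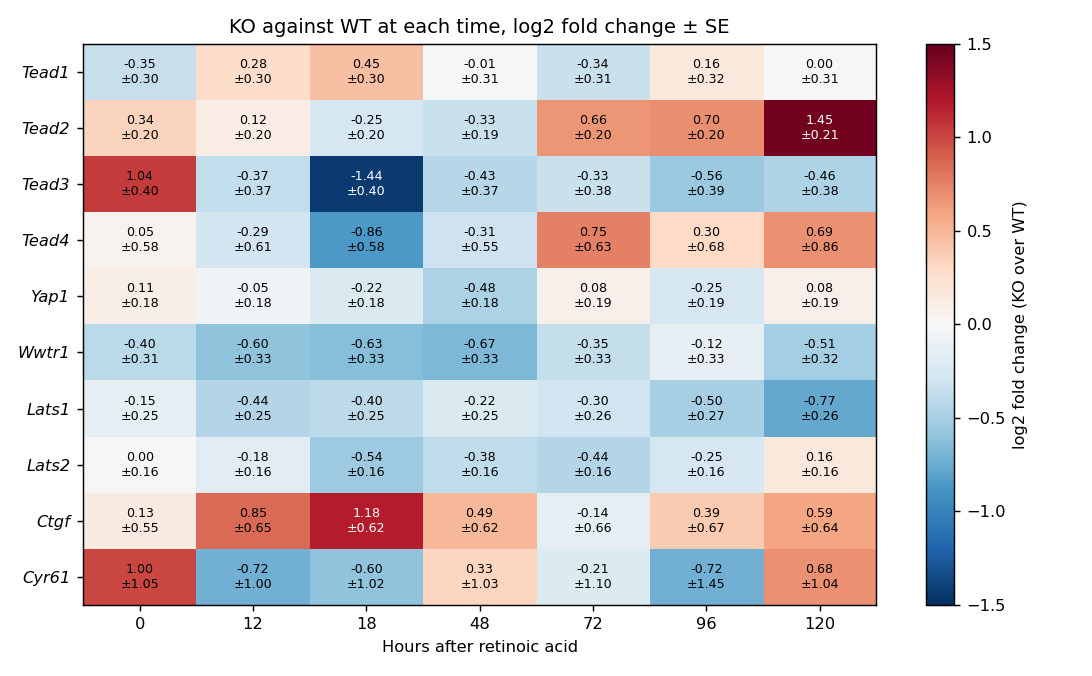
Fitted log2 fold change of KO over WT with its SE for the 10 genes (rows) at each time after retinoic acid (columns, hours), from 2 libraries per group. Red is higher in KO and blue lower; Tead2 at 120 h (1.45 ± 0.21) and Tead3 at 18 h (-1.44 ± 0.40) are the extremes.

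Against 0 h, whose 2 libraries each later time shares within a genotype, KO passed the threshold for Wwtr1 at 12 h (background 8.57%), 18 h (8.93%) and 48 h (4.51%), and for none of the 10 genes at 72 h (0.491%), 96 h (1.75%) or 120 h (0.953%). WT passed it for Ctgf, Tead3 and Wwtr1 at 12 h (background 10.9%), these 3 and Lats2 at 18 h (11.9%), Lats2, Tead1, Tead2 and Tead3 at 48 h (12.8%), Lats2 and Tead3 at 72 h (12.9%), Tead1, Tead2 and Tead3 at 96 h (26.7%), and Tead2, Tead3 and Tead4 at 120 h (28.9%). Without WT 0 h replicate 1 the number of such calls in WT over the 6 times was 5 in place of 19. With the replicate number as a block, the KO calls were 6 in place of 3 and the WT calls 25. The KO calls gained were Tead1 at 48 h and Yap1 at 12 and 18 h. The numbers pair the WT libraries, and the WT calls gained were Ctgf at 48 and 120 h, Tead1 at 18 and 120 h, Lats1 at 120 h and Wwtr1 at 48 h. A change at any time was called in KO for Tead3 and Wwtr1 (15.8% of all genes) and in WT for Lats2, Tead2, Tead3, Tead4 and Wwtr1 (37.3%). The block added Ctgf and Tead1 in WT and Tead1 in KO. The genotype by time interaction, which tests whether the courses differ, was past the threshold for Tead2 alone among the 10 genes (0.108% of all genes, 19 in number); the gene was picked with these values known, so nothing is read from it. It passed in 7 of 28 fits without 1 library and not without the shallow libraries, and the number of genes called over the whole table itself ran between 2 and 67 in fits without 1 library, was 7 without the shallow libraries and was 274 with DESeq2. For Tead3 the change from 0 to 18 h was lower in KO than in WT by -2.48 ± 0.56, which did not pass.

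Over the 14 group means of log2 CPM, the members most alike were Tead2 and Tead4 (Pearson r 0.829), and Tead1 ran opposite to Tead3 (-0.61); these points share the 28 libraries. By the same measure over 10696 genes, the course of Tead2 was most like those of Ksr1 (r 0.954) and Camkv (0.939), and that of Tead3 like Mtfr1l (0.948) and Zfp385a (0.935). Wwtr1 was most like Dcp1b (0.949) and Sesn3 (0.944), Lats1 like Fam76b (0.923) and Syap1 (0.917), and Lats2 like Dnmt3b (0.918) and Zswim5 (0.893). Tead1 was most like Traip (0.921) and Ppm1b (0.914), and Yap1 like Plekho2 (0.917) and Tet3 (0.891).

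Other genes of the pathway were described from a textbook list of 56, of which 53 passed the expression filter and Ankrd1, Ccdc80 and Foxf2 did not. This list too was chosen with earlier results of these data known. Its p-values and called shares, here and below, are therefore a description, and nothing is read from them. Those of the mean over times also carry the limit from shared deviations of WT libraries given above. In the mean over 7 times, 23 of the 53 passed the threshold, 8 higher and 15 lower in KO, which is 43.4% of the list beside 37.5% of all genes tested. The median log2 fold change was -0.04 in the list and -0.02 over all genes. Among the 12 upstream kinases, which activate the Lats kinases or act beside them, 3 passed as higher and 5 as lower (66.7% called). Among the 10 scaffolds and activators 6 passed as lower and none as higher (60%). Of the 9 antagonists of the kinases 3 passed as lower and none as higher (33.3%). Of the 8 proteins that bind Yap1 or Tead proteins 2 passed as higher and none as lower (25%). Of the 14 tested target genes 3 passed as higher and 1 as lower (28.6%). Over all genes tested, 17.4% passed as higher and 20.1% as lower. By sign alone, 2 scaffolds and 1 antagonist were higher and 4 of the binding proteins lower. Nothing is read from these small counts.

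Amotl2, an angiomotin, a family whose members bind Yap1 and hold it in the cytoplasm, had the largest difference of the list. KO libraries had Amotl2 at 26.1 and 26.9 CPM before retinoic acid, 40.5 and 53.2 after 12 h and 23.5 and 26.3 after 18 h. Later KO levels of Amotl2 were 12.4 and 17.4 after 48 h, 18.7 and 28.7 after 72 h, 17.2 and 14.2 after 96 h and 24.1 and 22.3 after 120 h. In WT libraries Amotl2 had 26.99 and 15.4 CPM before retinoic acid, 13.7 and 12.9 after 12 h and 10.6 and 7.36 after 18 h. Later WT levels of Amotl2 were 9.84 and 12.2 after 48 h, 11.2 and 7.71 after 72 h, 6.77 and 11.1 after 96 h and 7.44 and 4.73 after 120 h. Both KO libraries were above both WT libraries at 6 of 7 times, and the mean log2 fold change was 1.14 ± 0.12 (edgeR quasi-likelihood adjusted p = 2.39e-07). Amotl1 was higher by 0.64 ± 0.09 (edgeR adjusted p = 9.86e-06), without overlap at 5 of 7 times. Amot, the third of the family, had 0.08 ± 0.09 (edgeR adjusted p = 0.537). Myof, a membrane repair protein listed among Yap1 targets, was higher in KO than in WT by 0.82 ± 0.11 (edgeR adjusted p = 5.75e-06), and both its KO libraries lay above both WT libraries at 6 of 7 times. The share of all genes without overlap at 5 or 6 of the 7 times was not counted. At 120 h Myof had 80.4 and 67.0 CPM in KO and 36.3 and 21.7 CPM in WT, and Amotl2 had 24.1 and 22.3 CPM in KO and 7.44 and 4.73 CPM in WT. These calls were present in every alternative, Amotl2 at 1.06 to 1.20, Amotl1 at 0.57 to 0.68 and Myof at 0.73 to 0.89. The peritubular and stromal marker sums were higher in KO libraries than in WT libraries at 12, 18, 48, 72, 96 and 120 h, at 120 h with 414 and 395 CPM in KO and 128 and 122 CPM in WT. The Sertoli and endothelial sums at 120 h were higher in KO too, as given above for Tead2. The part of such cells in these 3 differences was not tested.

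Among the kinases, Map4k4 was higher in KO by 0.42 ± 0.07 (edgeR adjusted p = 8.87e-05) and Map4k1 by 0.32 ± 0.09 (edgeR adjusted p = 0.00733). At 120 h Map4k4 had 298 and 343 CPM in KO and 166 and 103 CPM in WT. Taok1, which activates the Hippo kinases, was lower in KO by -0.47 ± 0.08 (edgeR adjusted p = 0.00012), with 169 and 185 CPM in KO and 312 and 308 CPM in WT at 120 h. Map4k3 was lower by -0.46 ± 0.08 (edgeR adjusted p = 0.000152), and Stk3 (MST2), one of the core Hippo kinases, by -0.28 ± 0.08 (edgeR adjusted p = 0.00772), while its paralog Stk4 (MST1) had -0.10 ± 0.06 (edgeR adjusted p = 0.196). Smaller differences in both directions depended on single libraries. Taok3 (0.28 ± 0.09, edgeR adjusted p = 0.0157) was lost, at 0.20 to 0.25, without replicate 2 of KO 0 h, KO 18 h or WT 0 h or replicate 1 of KO 48 h, KO 72 h or KO 120 h. Dock5 (0.24 ± 0.08, edgeR adjusted p = 0.0135) was lost, at 0.19 to 0.20, without replicate 1 of KO 48 h or KO 120 h or replicate 2 of WT 0 h. Igfbp3 (0.28 ± 0.10, edgeR adjusted p = 0.0304) was past the threshold in 12 of 28 fits without 1 library, at 0.23 to 0.32. Of the lower genes, Map4k5 was past it in 14 of 28 such fits and 3 of the 7 other alternatives, Rassf1 in 17 of 28 and 3 of 7, Asap1 in 23 of 28 and 5 of 7, and Map4k2 in 24 of 28 and 6 of 7.

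Both Mob1 genes, whose proteins bind and activate Lats kinases, were lower in KO than in WT in the mean over 7 times. Mob1a was lower by -0.56 ± 0.10 (edgeR adjusted p = 8.36e-05), below WT without overlap at 6 of 7 times, and Mob1b by -0.49 ± 0.10 (edgeR adjusted p = 0.000418). As for Amotl2, the share of all genes without overlap at as many times was not counted. At 120 h Mob1a had 111 and 105 CPM in KO and 191 and 254 CPM in WT, and Mob1b had 36.2 and 52.4 CPM in KO and 89.5 and 101 CPM in WT. Dchs1, a large cadherin that binds Fat4, was lower by -0.57 ± 0.12 (edgeR adjusted p = 0.000474), and the scaffold Wwc1 (KIBRA) by -0.37 ± 0.08 (edgeR adjusted p = 0.00108). The scaffolds Sav1 and Nf2 had 0.14 ± 0.07 and -0.08 ± 0.07 (edgeR adjusted p = 0.148 and 0.375), and 25.4% of the Sav1 exon bases overlap Atl1 on the opposite strand. Strn3 and Slmap, parts of the phosphatase complex that opposes the Hippo kinases, were lower in KO than in WT by 0.47 ± 0.10 and 0.39 ± 0.09 on the log2 scale (edgeR adjusted p = 0.000849 and 0.00199).

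**Figure D5:**
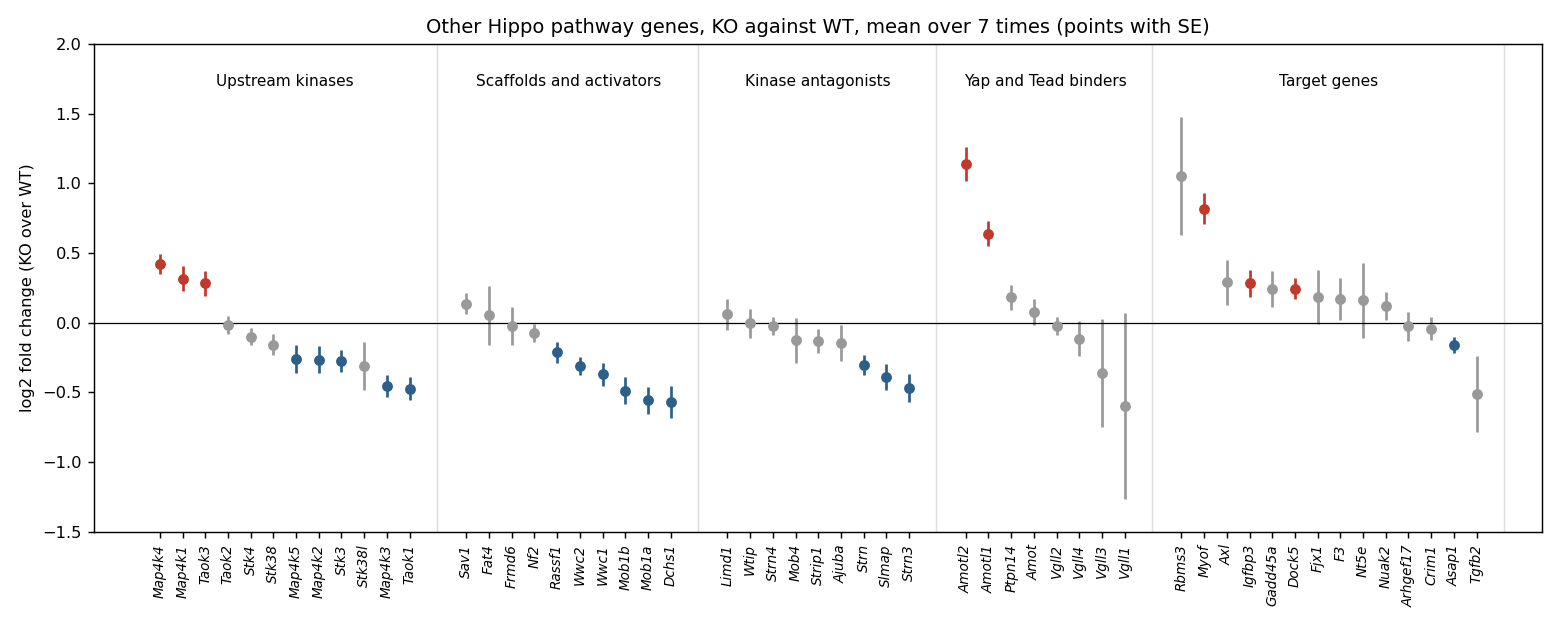
Log2 fold change of KO over WT, as the mean over 7 times, with its SE (y axis) for the 53 tested genes of the pathway list, grouped by role and ordered by size (x axis). Red points are higher and blue points lower at an edgeR adjusted p under 0.05, and grey points did not pass; the red points in the group of Yap1 and Tead binders are Amotl2 and Amotl1.

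At single times the list had 1 called gene at 12 h (Amotl2; 1.89% of the list beside 1.18% of all genes tested), 4 at 18 h (7.55% beside 4.14%), 3 at 72 h (5.66% beside 4.7%), 1 at 96 h (Map4k4; 1.89% beside 4.47%) and 17 at 120 h. It had none at 0 h (0% of all genes) or 48 h (0.308%). The 17 at 120 h, 9 higher and 8 lower in KO, were 32.1% of the list beside 15.4% of all genes tested (8.54% higher and 6.88% lower). These counts rest on single libraries: without WT 120 h replicate 2, 13 of the 17 calls were lost and 604 genes in all were called, and without KO 120 h replicate 1, 11 were lost and 597 were called, against 2702. Without KO 120 h replicate 2, 6 of the 17 were lost. Map4k4 was the only gene of the 17 called in all 28 fits without 1 library. A change at any time passed for 18 of 53 in KO (34.0% beside 15.8% of all genes) and for 28 of 53 in WT (52.8% beside 37.3%), and the interaction for none. With DESeq2 the interaction was called for 2 of the list, with the replicate block for 3 and with no filter on low counts for 4.

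Igfbp3, which encodes a binding protein of insulin-like growth factors and is listed among Yap1 targets, had the smallest any-time p of the list in both genotypes (edgeR adjusted p = 0.00135 in KO and 1.96e-07 in WT). Its KO libraries had 12.7 and 13.96 CPM before retinoic acid, 20.2 and 27.6 after 12 h and 25.1 and 25.4 after 18 h. Later KO levels of Igfbp3 were 18.2 and 18.9 after 48 h, 12.8 and 11.1 after 72 h, 10.7 and 9.86 after 96 h and 7.97 and 15.5 after 120 h. WT libraries of Igfbp3 had 10.7 and 9.66 CPM before retinoic acid, 25.2 and 25.3 after 12 h and 26.6 and 27.1 after 18 h. Later WT levels of Igfbp3 were 19.9 and 20.6 after 48 h, 12.2 and 14.98 after 72 h, 4.93 and 6.78 after 96 h and 3.91 and 4.48 after 120 h. In both genotypes it was highest at 12 and 18 h, and both WT libraries at 96 and 120 h were below both at 0 h. Amot, in contrast, had its lowest mean at 12 h in both, with 37.2 and 35.3 CPM in KO and 32.2 and 22.4 CPM in WT, against 98.5 and 85.4 CPM in KO and 128 and 120.2 CPM in WT at 0 h (any-time edgeR adjusted p = 0.0117 in KO and 1.48e-06 in WT). Wwc1 changed in both genotypes (edgeR adjusted p = 0.00422 in KO and 1.8e-05 in WT), with 54.3 and 75.6 CPM in KO and 98.9 and 101 CPM in WT at 96 h, against 29.9 and 28.2 CPM in KO and 35.9 and 32.4 CPM in WT at 0 h. Myof was low at 12 h, with 36.02 and 30.9 CPM in KO and 20.9 and 19.3 CPM in WT, against 87.7 and 72.0 CPM in KO and 99.1 and 52.1 CPM in WT at 0 h (any-time edgeR adjusted p = 0.00487 in KO and 5.15e-06 in WT). Nuak2, a kinase listed among Yap1 targets, was highest at 12 h, with 27.97 and 22.04 CPM in KO and 22.2 and 25.5 CPM in WT, against 13.6 and 12.7 CPM in KO and 12.9 and 10.2 CPM in WT at 0 h (any-time edgeR adjusted p = 0.0112 in KO and 0.00562 in WT). Map4k4 had an any-time edgeR adjusted p = 0.208 in KO and 3.29e-06 in WT. Its genotype by time interaction was not called in the main fit, so no difference in course is read from this pair. Amotl1 and Amotl2 changed in both, at edgeR adjusted p = 0.0434 and 0.00665 in KO and 8.32e-05 and 0.00234 in WT. The any-time calls in KO were lost for Amotl2 without KO 12 h replicate 2 (0.087), for Nuak2 without KO 12 h replicate 1 (0.131) and for Amot without KO 0 h replicate 1 (0.0741) or KO 12 h replicate 2 (0.0566), all adjusted p-values of edgeR.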

How the data were processed

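RNA of germ cells sorted from KO and WT testes was measured in 28 libraries, 2 for each genotype and time. Build mm10 and the tools TopHat, Bowtie and Cufflinks are named, without versions, per the submitters' processing notes. How strand was used in counting is not given in the sources used here. Deposited by the authors were whole-number read counts per gene in a pair of tables, each with 1 library of every group. The deposited tables named as FPKM held CPM, with no division by length: 25 of 28 columns equalled a count column over its total within 0.001 CPM, in KO with the other table number (11) and in WT with the same one (14). The remaining 3, KO at 72, 96 and 120 h, matched no count column; low values in them were multiples of a single read (100% within 0.1 read) and gave 4479729, 4190650 and 4122223 reads, on which the count test was run as an alternative (7374 genes called in the mean comparison, against 6568). It is not known which KO values and numbers are right. The design had assumed FPKM. Of 43280 features, 27 with date-like names were left out, as were 5 rows that name no gene (27.1 to 33.1% of the WT reads in the first table had no feature).

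Quasi-likelihood tests (robust, 14 group means) were run on the counts in edgeR 4.0.16 (R 4.3.3) after TMM scaling and the default expression filter, which kept 17519 genes, adjusted by Benjamini-Hochberg per comparison at 0.05. CPM were computed as count over library total, and per kilobase with exon lengths of GENCODE for GRCm38. The procedure was run on simulated counts with known changes, drawn independently for each library. That run could not test calls or SE where libraries share deviations across times. Alternatives were DESeq2 1.42.0, its size factors, library totals, no low-count filter, the replicate number as a block, the recovered reads, no shallow libraries, and leaving out each library. Deviations of same-numbered KO libraries correlated over 0.1 for 7 of 21 pairs of times, and those of WT libraries for 21 of 21 (0.258 to 0.517), so the numbers pair WT libraries only.

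The 10 genes, the list of 56 and the marker lists were chosen with earlier results of these data known. Named were all 10 genes; of the list, up to 8 higher and 8 lower by fold change in the mean comparison and 6 by smallest any-time p in each genotype, with at least 5 CPM; and for each of the 10 with a mean of at least 5 CPM the 2 genes with the highest r. Stk3, Stk4, Sav1, Nf2 and Amot (in the mean comparison) were named after their values were seen. RefSeq sequences are of GRCm38.p6; protein sequences were not used here. Floors of 3 counts and Poisson intervals cover counting error only, and PCR copies were not told apart.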

Additional observations from a re-analysis of the deposited data

Results flagged for a closer look

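Values outside the count tables came from the 3 deposited KO columns that matched no count column. For Tead2 they held 126 CPM at 72 h, 105 CPM at 96 h and 92.5 CPM at 120 h. For Tead4 they held 5.59 CPM at 72 h, 6.21 CPM at 96 h and 2.43 CPM at 120 h, on 25, 26 and 10 reads. For Lats2 the column at 120 h held 165 CPM. The exact Poisson interval of each value lay above the values of both WT libraries of its time. Such intervals leave out the spread between samples, and the counting error of the WT libraries was not part of this comparison. For Tead4 the interval at 72 h (3.615 to 8.25 CPM) overlapped that of WT replicate 2 (1.76 to 4.01). At 120 h the Tead4 interval (1.165 to 4.47 CPM) overlapped that of WT replicate 1 (0.519 to 2.15). The columns may hold the same samples as the shallow KO libraries, so they are no independent support, and it is not known which set of KO values is right.

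Tead2 was past the threshold of the genotype by time test, with a log2 change of 120 h over 0 h that was 1.12 higher in KO than in WT. The gene was picked with these values known, so this is a description, and nothing is read from the test. The call was lost without the shallow libraries and in most fits without 1 library.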

How the results depend on the processing

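No fold change past the threshold changed sign. Without the shallow KO libraries, the calls of KO against WT at single times were 2 for the 10 genes and 17 for the pathway list, the any-time calls in KO 1 and 9, and the interaction calls of the 10 genes 0. With the replicate block, calls of KO against 0 h were 6 for the 10 genes and 37 for the list, against 3 and 23, and the interaction called 3 of the list. With no filter the interaction called 4 of the list, and with DESeq2 2. Leaving out 1 library gave, for the 10 genes, 4 to 5 calls in the mean comparison, 2 to 6 at single times, 0 to 3 in KO and 5 to 19 in WT against 0 h, 1 to 2 at any time in KO, 5 to 7 in WT and 0 to 1 for the interaction. For the list the ranges were 20 to 24, 14 to 31, 1 to 26, 43 to 89, 9 to 19, 22 to 33 and 0 to 1 in the same order. The lowest counts against 0 h came without replicate 1 of the 0 h group concerned (KO for 0 and 1, WT for 5 and 43). For the list, calls of KO against WT at single times were fewest (14) without KO 120 h replicate 1 or WT 120 h replicate 2. Over all genes the interaction called 19, against 770 with no filter, 274 with DESeq2, 271 with the block, 42 with library totals, 56 with recovered reads and 7 without the shallow libraries. At 120 h 1496 genes were higher and 1206 lower in KO, and 1736 and 797 with library totals. Low read numbers limit Tead4, Ctgf and Cyr61, whose medians were 14, 15 and 7 reads in a library.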
